A study of Mus musculus with 15 samples.

Results

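Longitudinal stretch was set against transverse stretch after 4 h in cultured cardiac myocytes of neonatal mice, with 3 libraries for each axis, 6 of the 15 libraries in the series. The genes compared were the 12005 of 13657 in the deposited table with at least 1 FPKM (fragments scaled by transcript length and by library size) in at least 3 of the 15 libraries, after 152 rows of microRNA and small nucleolar RNA symbols had been left out. All cells came from strain C57BL/6 and were attached to a silicone (PDMS) membrane that was stretched statically. In the longitudinal 4 h group the primary, 14% stretch ran along the longitudinal axis with 3.6% across it, and in the transverse 4 h group the transverse axis was the primary one. The other libraries, used here for the estimate of spread and as side values, came from longitudinal and transverse stretch of 30 min and from non-stretched control cells, 3 of each. Each library came from its own stretch device and the labels call the devices biological replicates. The sources used here give neither the number of animals or pooled preparations behind the cells nor what the axes were aligned to. The series title names dependence on the stretch axis as its subject.

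Working heart muscle cells are elongated, with sarcomeres in series along the long axis and cell-cell junctions, the intercalated discs, at the ends. Load on the sarcomere, the disc and the integrin contacts to the matrix is sensed by stretch-activated channels and by kinases and actin dynamics, which act through the transcription factors AP-1, SRF with its MRTF cofactors, and TEAD with YAP. Genes known to answer load in myocytes include Nppb for the natriuretic peptide BNP, the matricellular genes Ctgf and Cyr61, and the Xin and LIM domain proteins of the sarcomere and disc.

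Depth relative to the deepest library was 0.875, 0.943 and 0.777 in longitudinal 4 h libraries A, B and C, against 0.861, 0.954 and 0.875 in transverse 4 h libraries A, B and C. The correlation of log2 values between libraries was 0.987 to 0.994 within the longitudinal 4 h group, 0.991 to 0.994 within the transverse 4 h group and 0.967 to 0.995 between them. The deviations of the 15 libraries from their group means shared a common pattern. The first component held 54.7% of the within-group sum of squares. Its highest scores were in transverse 30 min B (0.546), longitudinal 30 min C (0.354), longitudinal 4 h C (0.304) and transverse 4 h B (0.21). Transverse 30 min B had the lowest relative depth of the series, 0.671, an estimate that rests on 32 genes. Transverse 4 h B stood at 0.954. The part of depth in the component was not tested. The myocyte markers summed to 9290 to 14000 FPKM in the longitudinal and 9950 to 10900 FPKM in the transverse 4 h libraries, and all 12 in the table were above 0 in every 4 h library. Markers of other cells were present as well. Fibroblast markers summed to 2690 to 3000 FPKM in longitudinal against 2450 to 2570 FPKM in transverse 4 h libraries, without overlap. Macrophage markers summed to 532 to 596 against 474 to 600 FPKM.

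**Figure D1:**
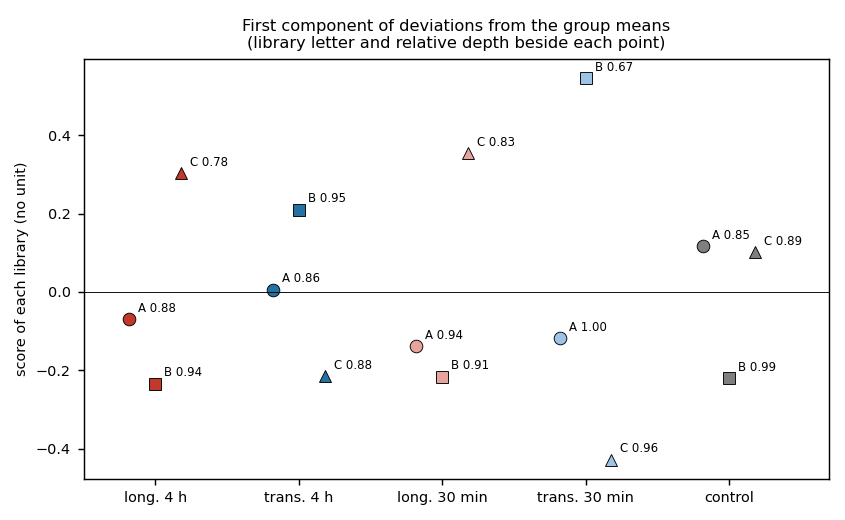
Score of each of the 15 libraries (y axis, no unit) on the first component of the deviations of log2(FPKM + 1) from the group means, by group (x axis), with the library letter and relative depth beside each point. The highest score is that of transverse 30 min B at 0.546, and within the compared groups longitudinal C (0.304) and transverse B (0.21) are highest.

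At an adjusted p under 0.05 (limma on log2(FPKM + 1), all 15 libraries in the fit, Benjamini-Hochberg adjustment over the 12005 genes), 1 gene was higher under longitudinal than transverse stretch at 4 h (0.00833% of genes) and 0 genes were lower (0%). At an unadjusted p under 0.05 there were 3117 genes (26.0%), 1457 of them higher (12.1%) and 1660 lower (13.8%). The adjusted p was under 0.1 for 33 genes, 18 higher and 15 lower, and under 0.15 for 1915 genes, 905 higher and 1010 lower. In 1985 genes (16.5%) all 3 longitudinal values lay above all 3 transverse values, and in 2300 genes (19.2%) all lay below. Most differences were small: the median absolute difference was 0.126 and the 90th percentile 0.386 on the log2 scale, and differences over 1 were found for 71 genes higher and 15 lower. The counts of calls depended on libraries that are in neither compared group. Without transverse 30 min B the same fit called 94 genes higher (0.783%) and 79 lower (0.658%), which included all 33 genes under 0.1. Without transverse 30 min B and longitudinal 30 min C, a setting chosen after the data were seen, it called 434 higher (3.62%) and 413 lower (3.44%). Without any of the 30 min libraries, and likewise with the 6 libraries compared alone, it called 1 higher and 0 lower. The count of higher genes was 3 without transverse 30 min C, and 2 without longitudinal 4 h A or without longitudinal 4 h B; the count of lower genes was 1 without longitudinal 4 h A.

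**Figure D2:**
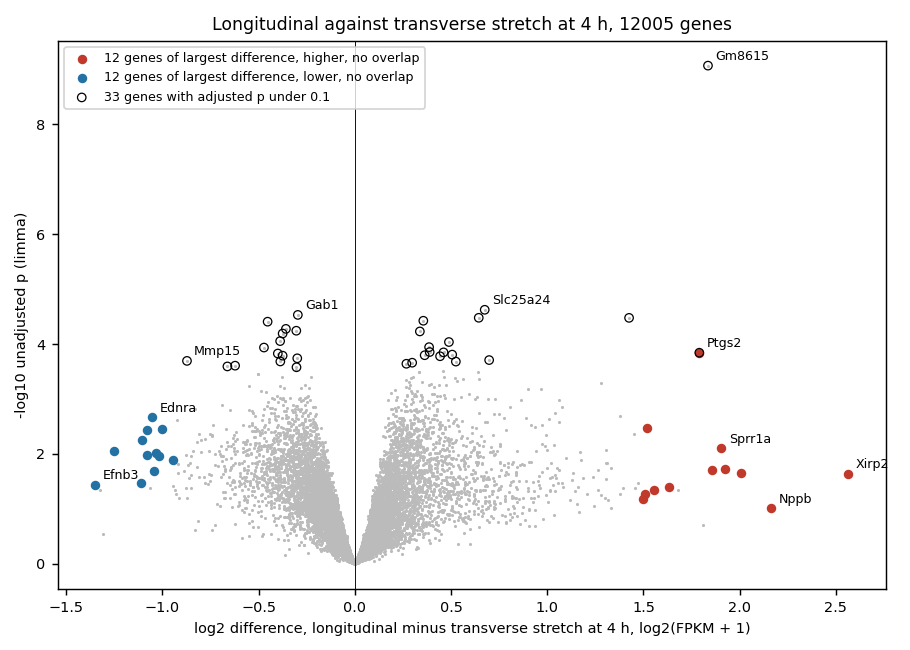
Each of the 12005 genes by its log2 difference, longitudinal minus transverse stretch at 4 h (x axis, log2(FPKM + 1)), and the negative log10 of its unadjusted limma p (y axis); red and blue mark the 12 genes per direction of largest difference without overlap, and rings the 33 genes with adjusted p under 0.1. Gm8615 stands above all others, and the genes of largest difference, such as Xirp2 at 2.56 and Nppb at 2.17, do not have the smallest p.

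The called gene was Gm8615, a predicted gene of chromosome 5 (149931141 to 149993612, mm9). It had 2.95, 2.92 and 2.07 FPKM in the longitudinal 4 h libraries A, B and C, against 0.0247, 0.0223 and 0 FPKM in the transverse 4 h libraries A, B and C. The values do not overlap, and the transverse 4 h group stands apart from every other group: the other 9 libraries had 2.2 to 3.71 FPKM. The difference was 1.83 ± 0.12 (log2, ± SE; adjusted p = 1.02e-05), and no other entry of the table overlaps this interval. The reads behind this predicted gene were not analysed here, so whether its near-zero values arose in the quantification was not tested. Against control, Gm8615 fell under transverse stretch at 4 h by 2.09 on the log2 scale (adjusted p = 2.05e-06), whereas the longitudinal difference from control was -0.26 (adjusted p = 0.125). These comparisons share the control and the stretched libraries. Gm8615 was also the gene called when the axis difference at 4 h was tested against the axis difference at 30 min.

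The largest differences upward included single genes of the sarcomere and intercalated disc, natriuretic peptide and secreted signalling genes. As whole lists, sarcomere genes had 1 of 24 higher and 2 lower without overlap. Intercalated disc genes had 5 of 17 higher and 3 lower, with a median log2 difference of -0.102. The 12 genes shown are those of largest difference, called or not, with no overlap between the groups and a mean of at least 5 FPKM in either group. Their adjusted p ran from 0.0871 to 0.261, so none is called. Values below are in the order of libraries A, B and C. Xirp2 (chromosome 2, 67284059 to 67364663, mm9), which encodes a Xin actin-binding repeat protein of the intercalated disc, had 233, 110 and 360 FPKM under longitudinal stretch, against 32, 89 and 14.3 FPKM under transverse stretch. The lowest longitudinal value, B, lies just above the highest transverse value, also B. The difference was 2.56 ± 0.99 (log2, adjusted p = 0.148), a ratio of mean FPKM of 5.2. Nppb, the BNP gene (chromosome 4, 147359898 to 147361314, mm9), had 2110, 1360 and 4040 FPKM under longitudinal stretch, against 551, 1200 and 194 FPKM under transverse stretch. Here too longitudinal C was highest, transverse C lowest, and the B libraries nearly met (2.17 ± 1.21, adjusted p = 0.261). In control cells Nppb itself had 511, 45.9 and 289 FPKM, a spread wider than the gap between the compared groups.

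Other muscle proteins followed the same order of libraries. Fhl1, a LIM domain protein of the sarcomere, had 264, 157 and 585 FPKM under longitudinal stretch, against 114, 123 and 56.6 FPKM under transverse stretch (1.63 ± 0.71, adjusted p = 0.178). Lmcd1, a LIM protein that acts as a transcriptional cofactor, had 50.2, 30.6 and 129 FPKM under longitudinal stretch, against 14.3, 22.1 and 9.96 FPKM under transverse stretch (1.92 ± 0.72, adjusted p = 0.14). In both genes longitudinal C stands well above A and B. Itgb1bp3, which RefSeq lists as Nmrk2, a muscle kinase of nicotinamide riboside in NAD synthesis, had 20.6, 10 and 56.8 FPKM under longitudinal stretch, against 4.47, 8.68 and 2.99 FPKM under transverse stretch (2.01 ± 0.77, adjusted p = 0.145). Abra, an actin-binding protein that promotes MRTF entry into the nucleus, had 31.5, 22.9 and 66.5 FPKM under longitudinal stretch, against 9.09, 17.7 and 4.85 FPKM under transverse stretch (1.86 ± 0.69, adjusted p = 0.14). The small heat shock gene Hspb1 had 730, 412 and 1880 FPKM in longitudinal libraries, against 284, 399 and 196 FPKM in transverse libraries (1.55 ± 0.70, adjusted p = 0.187). In each of these genes the groups are separated only narrowly, by their B libraries.

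Other genes among the 12 encode secreted factors or act in secretion and prostaglandin synthesis. Ptgs2, the inducible cyclooxygenase of prostaglandin synthesis (chromosome 1, 151947254 to 151955142, mm9), had 4.65, 5.56 and 11.5 FPKM under longitudinal stretch, against 1.18, 1.78 and 0.852 FPKM under transverse stretch. Its transverse values lie close to the control values of 1.04, 0.835 and 0.993 FPKM. The groups are widely separated (1.79 ± 0.33, adjusted p = 0.0871, the smallest among the 12). Ctgf, a matricellular YAP target, had 1130, 797 and 1730 FPKM under longitudinal stretch, against 438, 719 and 218 FPKM under transverse stretch (1.5 ± 0.75, adjusted p = 0.219). Hbegf, a membrane-shed ligand of the EGF receptor, had 100, 72.4 and 160 FPKM under longitudinal stretch, against 38.2, 58.9 and 21.1 FPKM under transverse stretch (1.51 ± 0.71, adjusted p = 0.198). These again have longitudinal C at the top and transverse C at the bottom. Spcs3, a subunit of the signal peptidase complex, had 130, 93.0 and 146 FPKM under longitudinal stretch, against 37.3, 64.4 and 29.5 FPKM under transverse stretch (1.52 ± 0.42, adjusted p = 0.108). Sprr1a, a small proline-rich protein of the cornified envelope that stressed myocytes also make, had 806, 504 and 601 FPKM under longitudinal stretch, against 125, 375 and 97.8 FPKM under transverse stretch (1.90 ± 0.60, adjusted p = 0.115). Sprr1a is the exception in order, with longitudinal A and not C highest.

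**Figure D3:**
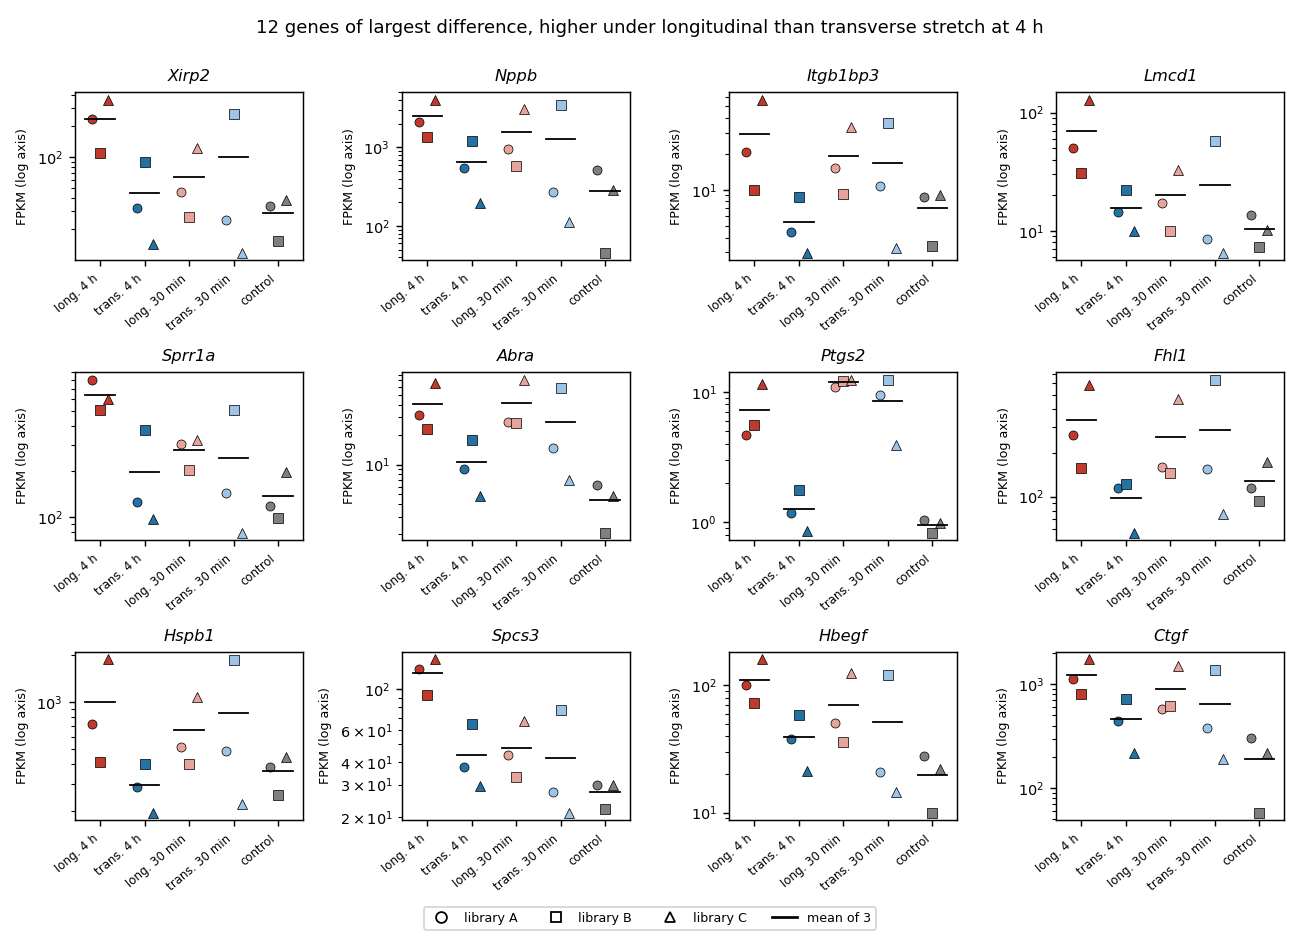
FPKM (log axis) of the 12 genes of largest difference, higher under longitudinal than transverse stretch at 4 h, in every library of the 5 groups; circles, squares and triangles are libraries A, B and C and lines are the means of 3. At 4 h the red and blue points do not overlap, transverse B is the highest transverse library in all 12 panels, and at 30 min transverse B lies far above transverse A and C in most panels.

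The order of libraries was shared across these genes. Longitudinal C was the highest of its group in 11 of the 12, transverse B the highest and transverse C the lowest of its group in 12 of 12. Of the 12, 11 were among the 120 genes of highest weight on the component of within-group deviations described above. Among all 1985 higher genes without overlap, longitudinal C was highest in 65.2% and transverse B in 70.1%. The part of that component in the axis difference was not tested. Longitudinal C and transverse B have the highest scores of their groups. The scores come from deviations from the group means, so high scores are balanced by low ones within every group.

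Promoter windows of some genes of largest difference are shown, picked among those that hold a match. The windows of Ptgs2, of the higher genes, and of Ednra and Lpar3, of the lower genes, hold none. Whether these genes share control was not tested. RefSeq promoter windows (GRCm38.p6, 250 bases before to 50 after the start) were matched by symbol and chromosome for 8 of the 12 higher and 9 of the 12 lower genes. Capitals mark matches, on either strand, to elements bound by AP-1, by CREB (CRE), by TEAD (M-CAT), by SRF (the CArG box) and by the general transcription machinery (the TATA box). A match on the minus strand reads as the reverse complement, and a TATA box can lie within a CArG box. In Nppb the window (chr4:147985650-147985949, plus strand) holds an M-CAT element and a TATA box, and in Xirp2 the window (chr2:67445752-67446051, plus strand) holds an AP-1 element. In Lmcd1 it (chr6:112273508-112273807, plus strand) holds a CArG box and a CRE. In Fhl1 the window (chrX:56779433-56779732, plus strand) holds a CArG box and the letters TATAAA. In Fhl1 these letters read on the minus strand, well before the start, so they need not be a TATA box of this gene. In Hdac11, a gene of the opposite direction, the window (chr6:91156565-91156864, plus strand) holds an M-CAT element.
Nppb: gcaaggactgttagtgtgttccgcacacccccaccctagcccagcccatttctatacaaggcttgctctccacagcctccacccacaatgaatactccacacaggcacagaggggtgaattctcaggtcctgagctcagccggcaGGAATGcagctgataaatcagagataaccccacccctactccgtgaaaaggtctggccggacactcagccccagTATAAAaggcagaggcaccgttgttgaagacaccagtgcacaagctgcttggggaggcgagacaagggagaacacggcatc
Xirp2: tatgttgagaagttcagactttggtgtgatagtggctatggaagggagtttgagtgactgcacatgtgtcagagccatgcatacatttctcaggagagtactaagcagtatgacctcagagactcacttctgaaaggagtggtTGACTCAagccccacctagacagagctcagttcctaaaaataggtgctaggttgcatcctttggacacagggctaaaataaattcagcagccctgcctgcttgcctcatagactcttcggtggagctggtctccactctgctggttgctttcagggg
Lmcd1: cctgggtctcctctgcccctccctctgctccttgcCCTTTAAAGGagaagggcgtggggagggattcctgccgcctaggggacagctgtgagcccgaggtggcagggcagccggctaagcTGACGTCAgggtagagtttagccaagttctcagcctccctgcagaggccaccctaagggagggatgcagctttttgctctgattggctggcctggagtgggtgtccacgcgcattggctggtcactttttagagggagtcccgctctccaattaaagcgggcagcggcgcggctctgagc
Fhl1: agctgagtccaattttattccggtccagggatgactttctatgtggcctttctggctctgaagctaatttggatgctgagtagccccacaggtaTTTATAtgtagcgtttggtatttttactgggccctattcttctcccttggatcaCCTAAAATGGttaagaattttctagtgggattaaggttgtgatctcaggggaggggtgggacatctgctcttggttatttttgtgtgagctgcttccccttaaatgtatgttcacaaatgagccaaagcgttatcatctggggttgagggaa
Hdac11: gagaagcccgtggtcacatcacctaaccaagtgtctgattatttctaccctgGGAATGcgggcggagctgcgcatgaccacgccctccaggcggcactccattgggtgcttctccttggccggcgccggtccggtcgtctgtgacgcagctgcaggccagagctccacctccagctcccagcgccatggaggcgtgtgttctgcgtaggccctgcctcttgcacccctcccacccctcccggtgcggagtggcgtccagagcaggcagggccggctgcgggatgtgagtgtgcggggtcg

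The letters TATAAA were found in 4 of the 8 higher and 0 of the 9 lower windows, and in 14.2% of all 27025 promoters. The AP-1 element, searched as TGANTCA, was in 2 of 8 higher and 0 of 9 lower windows, and in 7.93% of all promoters. A CArG box was in 2 of 8 and 0 of 9 windows, against 1.57% of all promoters. The CRE, searched as TGACGTCA, was in 1 of 8 and 0 of 9 windows and in 1.88% of promoters. The M-CAT element, searched as GGAATG, was in 2 of 8 and 3 of 9 windows and in 14.6% of promoters. These matches describe letters in a short window.

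Downward, the 12 genes of largest difference included receptors, a transcription factor and a muscle ubiquitin ligase, with differences of -1.35 to -0.95. Their adjusted p ran from 0.108 to 0.172 and none is called. Efnb3, an ephrin ligand of Eph receptors, had 21.4, 16.4 and 10.2 FPKM under longitudinal stretch, against 38.7, 29.8 and 57.7 FPKM under transverse stretch (-1.35 ± 0.58, adjusted p = 0.172). Its control values, 24.6, 37.6 and 27.6 FPKM, lie above the longitudinal values and partly within the transverse range. Sox4, a SoxC transcription factor of heart development, had 31.7, 45.9 and 16.6 FPKM under longitudinal stretch, against 77.8, 55.4 and 81.4 FPKM under transverse stretch (-1.25 ± 0.41, adjusted p = 0.117). Ednra, the type A endothelin receptor (chromosome 8, 80186928 to 80248351, mm9), had 5.42, 6.23 and 3.3 FPKM under longitudinal stretch, against 12, 8.49 and 13.4 FPKM under transverse stretch (-1.05 ± 0.27, adjusted p = 0.108). The Ednra values in control, 13.6, 15.9 and 13.4 FPKM, lie at or above all transverse values, and longitudinal C is the lowest library in both genes.

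Among the other receptors and regulators, Lpar3, a receptor for lysophosphatidic acid, had 9.1, 7.69 and 4.6 FPKM under longitudinal stretch, against 20.5, 13.5 and 14.7 FPKM under transverse stretch (-1.10 ± 0.33, adjusted p = 0.112). Hdac11, the histone deacetylase of class IV, had 4.62, 5.51 and 3.1 FPKM under longitudinal stretch, against 10.8, 7.39 and 11.2 FPKM under transverse stretch (-1.0 ± 0.28, adjusted p = 0.108). Fbxo32, the muscle ubiquitin ligase atrogin-1, had 11.2, 15.9 and 5.92 FPKM under longitudinal stretch, against 23.0, 19.8 and 27.6 FPKM under transverse stretch (-1.11 ± 0.47, adjusted p = 0.167). These groups do not overlap, and in Hdac11 and Fbxo32 the highest longitudinal and the lowest transverse value both come from B. Smtnl2, a smoothelin-like protein, had 4.81, 5.5 and 3.5 FPKM under longitudinal stretch, against 12, 8.04 and 12.7 FPKM under transverse stretch and 19.0, 18.5 and 15.4 FPKM in control (-1.08 ± 0.30, adjusted p = 0.108). It is the gene of the 12 with the lowest transverse difference from control, -0.66. The remaining genes were Tmem86a of the lysoplasmalogenase family (-1.08), the Rab effector gene Rph3al (-1.04), the mitochondrial aldehyde dehydrogenase Aldh1b1 (-1.03), the kelch-like gene Klhl38 (-1.01) and Pik3ip1, a negative regulator of PI3 kinase (-0.95). Longitudinal C and transverse B were the lowest of their groups in 12 of these 12 genes, and 12 of 12 were among the 120 genes of lowest weight on the component of within-group deviations.

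**Figure D4:**
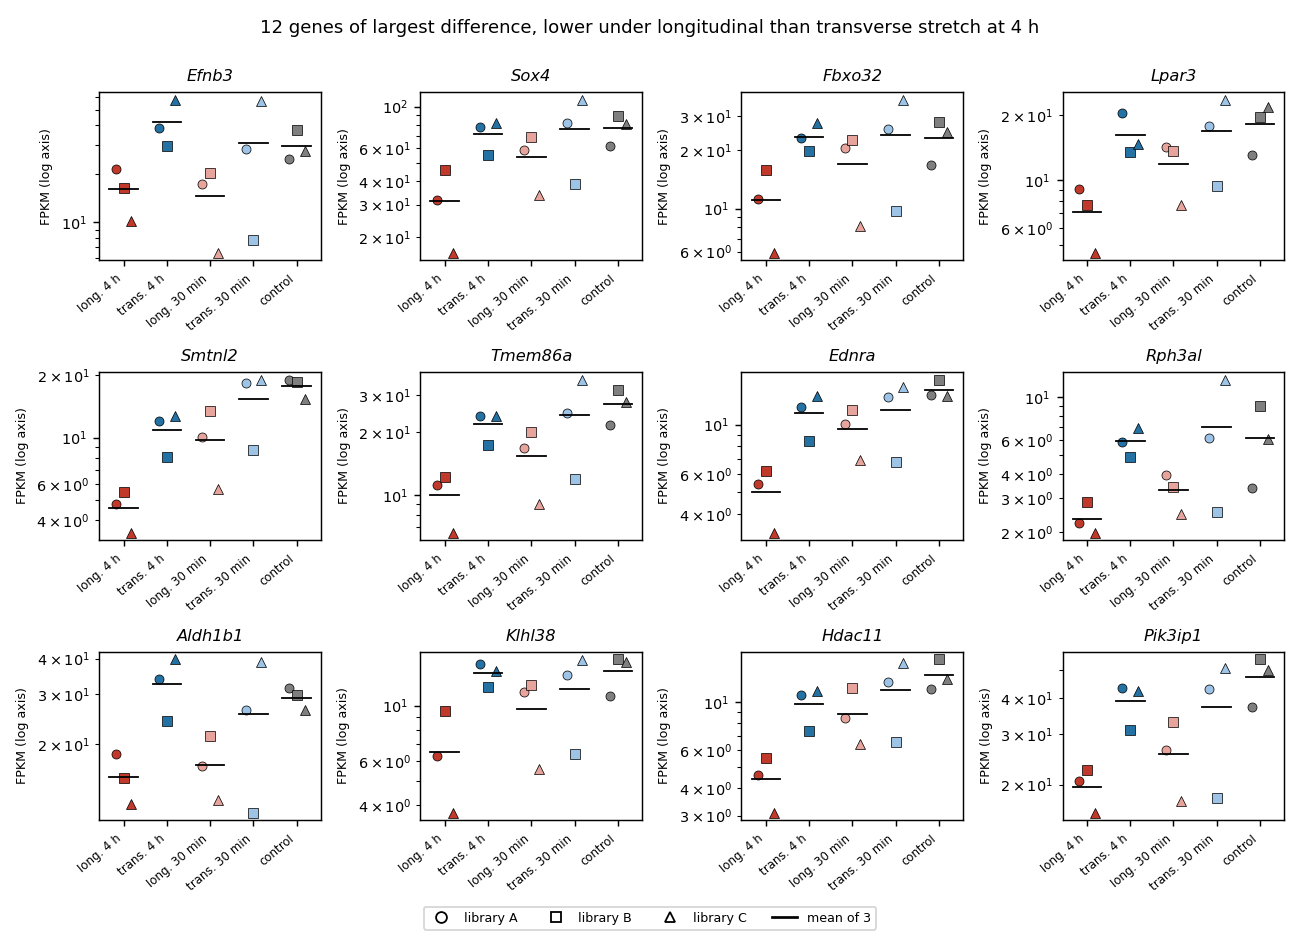
FPKM (log axis) of the 12 genes of largest difference, lower under longitudinal than transverse stretch at 4 h, in every library of the 5 groups; circles, squares and triangles are libraries A, B and C and lines are the means of 3. At 4 h the red points lie below the blue ones in every panel, with longitudinal C and transverse B lowest in their groups.

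The smallest p belonged to other genes, with modest differences and tight replicates, which are named here after their values were seen. Under an adjusted p of 0.07 there were 7 genes, Gm8615 among them. Slc25a24, a mitochondrial carrier of ATP-Mg and phosphate, had 13.2, 13.4 and 15.4 FPKM under longitudinal stretch, against 7.8, 9.47 and 7.96 FPKM under transverse stretch (0.68 ± 0.10, adjusted p = 0.0672). Control cells had 8.75, 7.76 and 8.49 FPKM, so the longitudinal libraries are those that stand apart. Gab1, a docking adaptor of receptor tyrosine kinases, had 20.0, 18.9 and 18.4 FPKM under longitudinal stretch, against 24, 22.9 and 24.2 FPKM under transverse stretch (-0.30 ± 0.05, adjusted p = 0.0672). The glycosyltransferase gene Gcnt4 (0.64), the nucleophosmin family gene Npm3 (0.36), the Ral exchange factor gene Rgl1 (-0.45) and 4930562F07Rik (1.43) complete this set. The last stands low, with a mean log2(FPKM + 1) of 0.799 over all libraries. Further down, Mylk3, the cardiac kinase of myosin light chain, had 132, 151 and 97.5 FPKM under longitudinal stretch, against 201, 176 and 219 FPKM under transverse stretch (-0.66 ± 0.13, adjusted p = 0.0961). Mmp15, a membrane-type metalloproteinase, had 24, 29.3 and 17.1 FPKM under longitudinal stretch, against 48.0, 38.1 and 42.8 FPKM under transverse stretch (-0.87 ± 0.17, adjusted p = 0.0897). In both, transverse and control values overlap. The glycogen phosphorylase gene Pygb (-0.40), the GATA cofactor gene Zfpm1 (-0.47), and Pip5k1b, a kinase that makes phosphatidylinositol bisphosphate (-0.62), were lower. The ribosome assembly gene Noc3l (0.36) and Serp1, which acts at the endoplasmic reticulum under stress (0.39), were higher. All 33 genes under 0.1 had groups without overlap.

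Gene lists for processes that load could touch were read against the background of 16.5% of genes without overlap upward and 19.2% downward, and the median difference of all genes, -0.008. No member of any of the 47 lists, 10 of them cell type markers, was called. The lists were chosen with earlier results of these data known. Some hold genes of largest difference named above, such as Xirp2 and Hdac11. Their counts and medians are therefore a description and not an independent test. Among immediate early transcription factors 13 of 27 were higher without overlap and 0 lower, with a median of 0.454. Atf3, a partner of AP-1 factors, had 27.6, 23.3 and 49.3 FPKM under longitudinal stretch, against 10.3, 16.6 and 8.99 FPKM under transverse stretch (1.38 ± 0.36, adjusted p = 0.108). Fos, the AP-1 subunit, had 4.92, 6.76 and 8.51 FPKM under longitudinal stretch, against 3.25, 4.7 and 3.69 FPKM under transverse stretch (0.65 ± 0.17, adjusted p = 0.108). The zinc finger factor gene Egr1 overlapped, by a transverse value of 22.7 FPKM and a longitudinal one of 21.9 FPKM (0.45 ± 0.16, adjusted p = 0.13). Fosb did not overlap, at 1.2 FPKM or less in either group (0.44 ± 0.24, adjusted p = 0.255). Of the feedback inhibitors of MAP kinases and calcineurin, 8 of 16 were higher without overlap and 0 lower (median 0.335). They include the EGF receptor inhibitor Errfi1 (0.70, adjusted p = 0.0897), the MAP kinase phosphatases Dusp5 (0.49) and Dusp6 (0.47). The calcineurin inhibitor Rcan1 had 158, 147 and 224 FPKM under longitudinal stretch, against 72.3, 105 and 44.7 FPKM under transverse stretch (1.30 ± 0.64, adjusted p = 0.215).

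Load markers had the highest median of the lists, 0.985, with 8 of 18 members higher and 0 lower without overlap. Acta1, the skeletal actin gene of the fetal programme, did not separate: it had 105, 61.6 and 283 FPKM under longitudinal stretch, against 146, 90.9 and 39.0 FPKM under transverse stretch (0.60 ± 0.74, adjusted p = 0.616). Ankrd1, the muscle ankyrin repeat protein of the sarcomere, overlapped too, with 5420, 3900 and 5800 FPKM under longitudinal stretch, against 3320, 4480 and 2520 FPKM under transverse stretch (0.57 ± 0.50, adjusted p = 0.47). Myh7, the beta myosin heavy chain gene, differed by 0.04 ± 0.18 (adjusted p = 0.897), a sign that turned under quantile normalization (-0.055) and without longitudinal 4 h C (-0.134). YAP/TEAD targets had 12 of 21 higher and 0 lower (median 0.288). Cyr61, a matricellular protein, had 174, 130 and 282 FPKM under longitudinal stretch, against 79.1, 121 and 56.3 FPKM under transverse stretch (1.18 ± 0.41, adjusted p = 0.128). SRF and MRTF targets had 14 of 25 higher and 1 lower (median 0.499). The lower member, the LIM gene Fhl2, had 539, 568 and 430 FPKM under longitudinal stretch, against 726, 596 and 744 FPKM under transverse stretch (-0.43, adjusted p = 0.118). The summed markers of smooth muscle and pericytes, a list that shares SRF targets such as Tagln, stood at 939 to 1590 FPKM in longitudinal against 492 to 845 FPKM in transverse 4 h libraries. The members did not all follow the sum: of 10, 6 were positive and 4 negative, with a median of 0.071. Without overlap, 4 were higher and 1 lower. The part of these markers in the SRF list was not tested. In these cultures fewer cells of a type and less RNA per cell cannot be told apart.

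Adhesion and matrix genes without overlap were higher, not lower, under longitudinal stretch. Integrin and focal adhesion genes had 16 of 24 higher and 0 lower without overlap (median 0.417). Examples are Lims1, the adaptor PINCH of integrin-linked kinase (0.45, adjusted p = 0.117), and the kindlin Fermt2 (0.42, adjusted p = 0.127). Matrix remodelling genes had 10 of 20 higher and 0 lower (median 0.287), and matrix structure genes 10 of 24 higher and 0 lower (median 0.161). Thbs1, a matricellular activator of latent TGF-beta, had 345, 463 and 419 FPKM under longitudinal stretch, against 231, 257 and 187 FPKM under transverse stretch (0.86 ± 0.20, adjusted p = 0.105). Tnc, the de-adhesive matrix protein tenascin C, had 35.7, 50.9 and 45.3 FPKM under longitudinal stretch, against 23.6, 26.2 and 23.6 FPKM under transverse stretch (0.81 ± 0.20, adjusted p = 0.108). In both the replicates lie close together and the groups are wide apart. The fibroblast marker list itself had 5 of 13 members higher and 0 lower without overlap (median 0.142), Thy1 at 0.74 among them (adjusted p = 0.117). Its sums were 2690 to 3000 FPKM in longitudinal against 2450 to 2570 FPKM in transverse 4 h libraries. The list includes matrix genes such as Col1a1, Col1a2 and Col3a1, so these sums are not independent of the matrix genes. The part of fibroblast content in these differences was not tested. Epicardial markers summed to 27 to 29.9 FPKM in longitudinal against 21.7 to 23.3 FPKM in transverse 4 h libraries, also without overlap. Endothelial markers summed to 71.9 to 83.5 against 69.3 to 86.2 FPKM, with overlap.

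Secreted signals were less uniform. EGF family genes had 2 of 10 higher and 0 lower (median 0.116), Hbegf and Ereg. Ereg, the ligand epiregulin, had 3.67, 5.23 and 6.59 FPKM under longitudinal stretch, against 2.05, 2.58 and 1.23 FPKM under transverse stretch (1.06 ± 0.25, adjusted p = 0.105). Cytokine and NF-kB genes had 7 of 20 higher and 1 lower (median 0.089), and growth factors 4 of 24 higher and 0 lower (median 0.195). Tgfb2, a TGF-beta ligand, had 40.1, 28.3 and 71.7 FPKM under longitudinal stretch, against 14.6, 24.8 and 11 FPKM under transverse stretch (1.4 ± 0.62, adjusted p = 0.181). Lif, the gp130 cytokine, did not overlap but stood low, with 1.26, 0.879 and 1.37 FPKM under longitudinal stretch, against 0.655, 0.706 and 0.383 FPKM under transverse stretch (0.46 ± 0.17, adjusted p = 0.139).

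Ion channel and cardiac transcription factor genes without overlap were more often lower than higher. Ion channel genes had 0 of 20 higher and 13 lower without overlap, the lowest median of the lists at -0.497. Kcnj12, an inward rectifier potassium channel, had 4.37, 5.84 and 4.42 FPKM under longitudinal stretch, against 8.11, 6.36 and 9.94 FPKM under transverse stretch (-0.63 ± 0.18, adjusted p = 0.108). Kcnh2, the channel of the rapid delayed rectifier current, had 19.0, 22.9 and 19.0 FPKM under longitudinal stretch, against 31.7, 25.0 and 36.1 FPKM under transverse stretch and 41.6, 42.7 and 38.0 FPKM in control (-0.57 ± 0.20, adjusted p = 0.129). In both genes the longitudinal values are below both transverse and control values, with transverse B the closest to the longitudinal group. TRP and mechanosensitive channels, a separate list, had 4 of 7 higher and 0 lower (median 0.209). They include the stretch-gated potassium channel Kcnk2 (0.57, adjusted p = 0.138) and Trpc1 (0.26, adjusted p = 0.117).

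Cardiac transcription factors had 2 of 19 higher and 9 lower without overlap (median -0.238). Nkx2-5, the homeobox factor of the myocyte lineage, had 82.7, 86.2 and 81.1 FPKM under longitudinal stretch, against 118, 101 and 116 FPKM under transverse stretch (-0.41 ± 0.11, adjusted p = 0.108). Hey2, a Notch-responsive repressor of the ventricle, had 2.24, 2.08 and 1.72 FPKM under longitudinal stretch, against 4.6, 3.1 and 4.98 FPKM under transverse stretch (-0.78 ± 0.23, adjusted p = 0.112). Hey2 and Irx4 (-0.67, adjusted p = 0.125) are also ventricular markers, a list with 1 of 8 higher and 4 lower (median -0.412). In sign, 3 of the 8 were positive and 5 negative. The summed ventricular markers overlapped, at 12300 to 15500 FPKM in longitudinal against 12000 to 14000 FPKM in transverse 4 h libraries. Atrial markers had 0 of 8 in either direction. Sarcomere genes had 1 of 24 higher and 2 lower (median 0.147). Intercalated disc genes had 5 of 17 higher and 3 lower (median -0.102). Among them Xirp2 stood at 2.56, and the gap junction gene Gja1 overlapped (-0.33 ± 0.15, adjusted p = 0.187). Ky, a muscle protein of the Z-disc, had 1.9, 2.91 and 1.1 FPKM under longitudinal stretch, 5.66, 3.39 and 5.81 FPKM under transverse stretch and 8.36, 10.5 and 8.59 FPKM in control (-1.02 ± 0.34 between the axes, adjusted p = 0.12). Calcium handling genes had 3 of 22 higher and 4 lower, with a median of 0.039 that turned to -0.028 under quantile normalization and to -0.019 without transverse 4 h C.

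Adrenergic, endothelin and angiotensin signalling genes had 0 of 16 higher and 5 lower. Their median of -0.016 turned to 0.025 without longitudinal 4 h C and 0.023 without transverse 4 h C. Among them were the adenylyl cyclase Adcy5 (-0.38, adjusted p = 0.108) and the beta receptor Adrb1 (-0.45, adjusted p = 0.135). Fatty acid oxidation genes and mitochondrial regulators had 0 of 24 higher and 8 lower (median -0.188). Examples are Ppara, the nuclear receptor that drives fatty acid oxidation (-0.43, adjusted p = 0.119), and Ppargc1b, a coactivator of mitochondrial genes (-0.30, adjusted p = 0.108). Oxidative phosphorylation genes had 1 of 24 in each direction, with a median of -0.04 that turned to 0.004 without longitudinal 4 h B. The ligase and FoxO list had 2 of 16 higher and 5 lower (median -0.237). Foxo3, a factor that activates atrophy ligases, had 9.73, 8.58 and 7.21 FPKM under longitudinal stretch, against 11.7, 11 and 14.2 FPKM under transverse stretch (-0.48 ± 0.14, adjusted p = 0.108). Interferon response genes were negative in 16 of 16 with a median of -0.481, yet 0 of 16 separated without overlap in either direction, and the median was 0.177 without transverse 4 h A. Clock genes split, 3 of 16 higher and 4 lower. Dbp, an output factor of the clock, had 9.47, 9.83 and 8.08 FPKM under longitudinal stretch, against 20.1, 14.5 and 20.4 FPKM under transverse stretch (-0.92 ± 0.33, adjusted p = 0.13), while Clock was at 0.32 (adjusted p = 0.108).

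Ribosome biogenesis, chaperone and sterol synthesis genes without overlap were all higher under longitudinal stretch. Ribosome biogenesis genes had 14 of 22 higher and 0 lower (median 0.249). The nucleolar gene Gnl3 had 21.7, 20.7 and 28.6 FPKM under longitudinal stretch, against 13.6, 17.5 and 13.5 FPKM under transverse stretch (0.63 ± 0.15, adjusted p = 0.105). Cytosolic ribosomal proteins had 14 of 24 higher and 0 lower, with a median of 0.095 that turned to -0.008 under quantile normalization. Polyamine and MYC genes had 7 of 13 higher and 4 lower (median 0.151). Myc itself had 8.31, 8.49 and 12.5 FPKM under longitudinal stretch, against 5.32, 7.57 and 3.91 FPKM under transverse stretch (0.72 ± 0.21, adjusted p = 0.108). Heat shock genes had 12 of 20 higher and 0 lower (median 0.519). They include the cochaperone Dnajb4 (0.55, adjusted p = 0.11) and the cytosolic chaperone Hsp90aa1 (0.69, adjusted p = 0.157). In ATF4 and ER stress genes 5 of 18 were higher and 1 lower (median 0.333). The amino acid transporter Slc7a5 had 19.6, 19.8 and 24.5 FPKM under longitudinal stretch, against 15.2, 15.8 and 10.2 FPKM under transverse stretch and 19.1, 17.4 and 19.0 FPKM in control (0.61 ± 0.17, adjusted p = 0.108). For Slc7a5 the transverse libraries are those that stand below control. Sterol synthesis genes had 9 of 15 higher and 0 lower (median 0.551). DNA replication and mitosis genes had 0 of 24 in either direction (median 0.115).

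**Figure D5:**
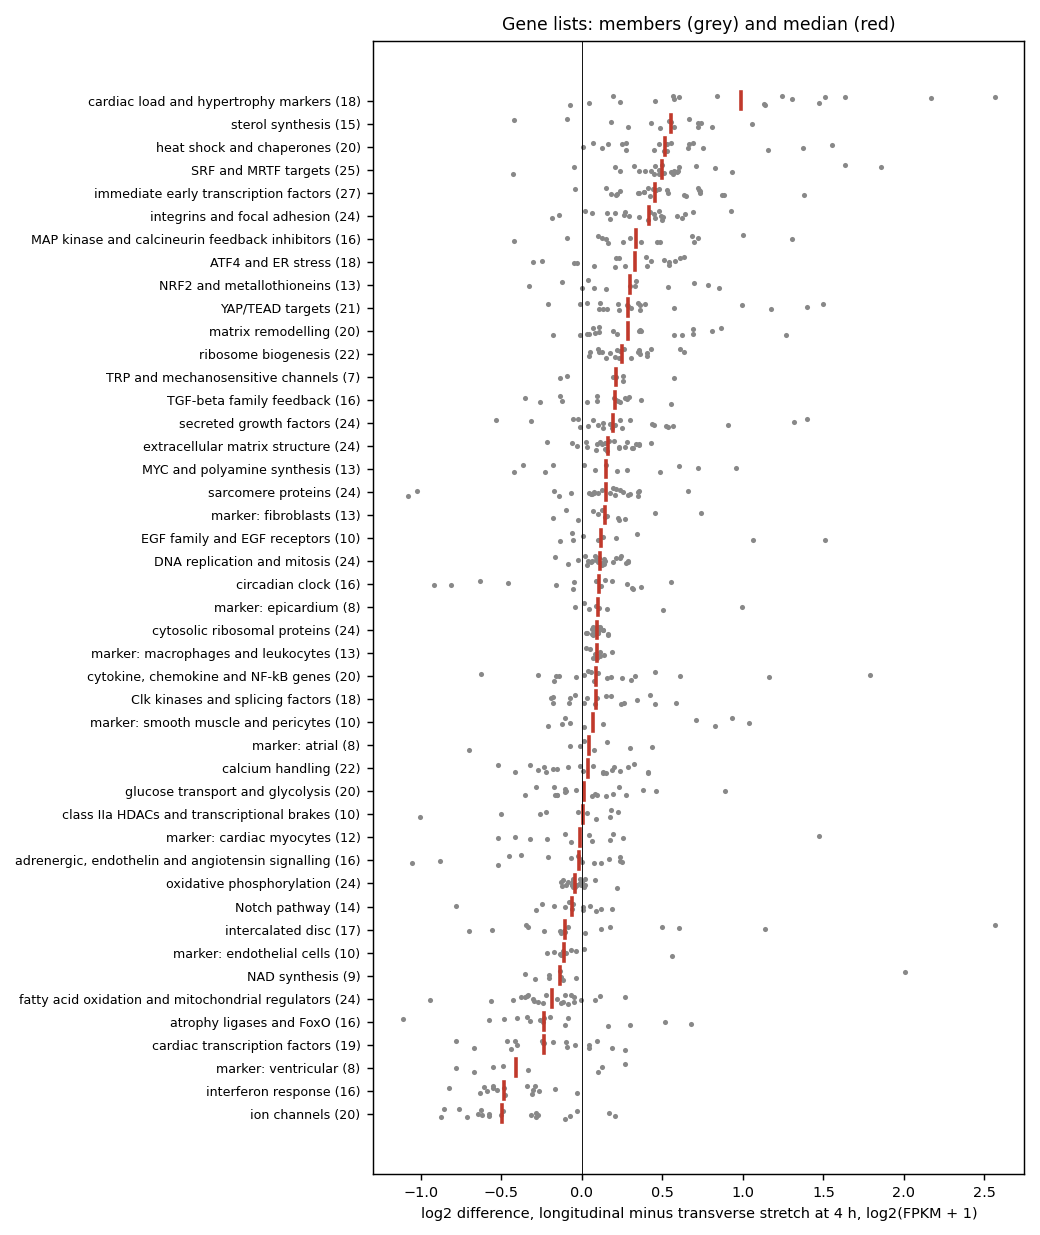
Log2 difference, longitudinal minus transverse stretch at 4 h on log2(FPKM + 1) (x axis), of the tested members (grey points) of each gene list (rows, with the number tested) and their median (red bar). Load markers have the highest median at 0.985 and ion channels the lowest at -0.497; none of the grey points is a called gene.

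Some list members were called in the settings without 1 or 2 of the 30 min libraries. The libraries left out, transverse 30 min B and longitudinal 30 min C, have the highest scores on the component of within-group deviations. Leaving out both was chosen after the data were seen. Without any 30 min library the fit called 1 gene higher and 0 lower, so the list counts below are a description. Without transverse 30 min B and longitudinal 30 min C, where 3.62% of all genes were called higher and 3.44% lower, 9 of the 47 lists had at least 4 members called in the same direction. Higher were 9 of 22 ribosome biogenesis genes, 6 of 27 immediate early factors, 4 of 21 YAP/TEAD targets, 4 of 18 load markers and 4 of 20 matrix remodelling genes. Lower were 7 of 20 ion channels, 4 of 8 ventricular markers, 4 of 16 clock genes and 4 of 16 genes of the ligase and FoxO list. With transverse 30 min B alone left out, where 0.783% of all genes were called higher and 0.658% lower, 3 ribosome biogenesis genes and 2 matrix remodelling genes were called higher and 2 ventricular markers lower, and 0 members of the other 6 of these lists. In the setting without both libraries 6 of the 12 top higher and 11 of the 12 top lower genes were called, and 2 and 3 of them without transverse 30 min B alone.

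The number of genes called against control differed between the axes at 4 h, while the direct test between the axes called 1 gene. Against control 2510 genes were called under longitudinal stretch at 4 h (20.9%), 1254 of them higher (10.4%) and 1256 lower (10.5%). Under transverse stretch at 4 h the count was 2 (0.0167%), both lower. At an unadjusted limma p under 0.05 there were 4514 genes under longitudinal stretch (37.6%) and 1266 under transverse stretch (10.5%). These comparisons share the 3 control libraries. The top genes below were chosen on the same stretched libraries, for high longitudinal against low transverse values or the reverse, which by itself favours unequal counts, so these values are a description. Leaving out libraries lowered the longitudinal count of 2510 to 794 (control B), 1057 (control C), 1449 (longitudinal 4 h A) and 1022 (longitudinal 4 h C). The transverse count of 2 became 4 when control A or transverse 30 min A was left out, and 1 when it was control B or C, or transverse 4 h B or C. Of the 12 top higher genes, 7 were called against control under longitudinal stretch, with differences of 1.22 to 3.57 over the 12, and 0 under transverse stretch, with -0.41 to 1.4. Of the 12 top lower genes, 8 were called under longitudinal stretch, with -1.75 to -0.90, and 0 under transverse stretch, with -0.66 to 0.45. For Abra, for instance, the longitudinal difference from control was 2.89 (adjusted p = 0.0152) and the transverse 1.03 (adjusted p = 0.64), and for Hdac11 -1.42 (adjusted p = 0.00811) and -0.41 (adjusted p = 0.645).

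The axis difference at 4 h was also set against that at 30 min, which shares no library with it. At 4 h, limma called 1 gene between the axes and gave 3117 at an unadjusted p under 0.05 (26.0%), and at 30 min it called 0 (0%) and gave 642 (5.35%). The test of the difference between the axis effects called 1 gene, Gm8615 (0.00833%), and gave 598 genes at an unadjusted p under 0.05 (4.98%). Without transverse 30 min A it called 2. The 12 top higher genes were positive at 30 min in 12 of 12 and the 12 top lower genes negative in 12 of 12. These genes are not independent observations. On the component of within-group deviations, 11 of the 12 higher genes were among the 120 of highest weight. All 12 lower genes were among the 120 of lowest weight. The share of all genes with the same sign at both times is not given here. The smallest adjusted p of the difference among the 24 top genes was 0.837. Across the 12005 genes, which are not independent replicates, the axis differences at the 2 times correlated at r = 0.57, or 0.687 when transverse B and longitudinal C were left out at 30 min. Nppb was 956, 578 and 3110 FPKM in the longitudinal 30 min libraries, against 267, 3450 and 112 FPKM in the transverse ones, where transverse B alone exceeds all others. List medians at 4 h were higher than at 30 min for some lists. Examples are load markers (0.985 at 4 h and 0.27 at 30 min), heat shock genes (0.519 and 0.025) and ribosome biogenesis genes (0.249 and 0.051). Other lists had slightly lower medians at 4 h than at 30 min. Examples are matrix remodelling (0.287 at 4 h and 0.328 at 30 min), DNA replication and mitosis (0.115 and 0.136) and cytosolic ribosomal proteins (0.095 and 0.102). For interferon response genes the medians were -0.481 at 4 h and 0.307 at 30 min, but without transverse 4 h A the median at 4 h was 0.177. These list differences between times were not tested.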

How the data were processed

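Poly(A) RNA of 15 libraries (5 groups of 3, named A, B and C) was read on an Illumina HiSeq 2000 after TruSeq library preparation, which does not mark the strand, per the labels' protocols; overlapping and antisense genes cannot be told apart. The submitters' processing notes name mm9 as the genome build and list Cufflinks 2.0.2, TopHat 1.4.1 and FastQC, without saying what each did. The authors deposited 1 table of FPKM values per gene and library, scaled by the authors for transcript length and library size; the unit is taken from the values and from Cufflinks being named. FPKM keeps no counts, so absolute depth is unknown; relative depth came from the step of the lowest values. The deposited starts count from 0, since end minus start equalled the GRCm38 span of the same symbol for 3165 genes and end minus start plus 1 for 303, of 12208 compared, so 1 was added. No column of another series was present (0).

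limma 3.58.1 in R 4.3.3 was fitted, with trend and robust options, to log2(FPKM + 1) of all 15 libraries as 5 group means (10 residual degrees of freedom); a gene was called at a two-sided Benjamini-Hochberg adjusted p under 0.05, and differences understate changes of low genes. P-values measure the spread between devices. Genes named are the called gene, up to 12 per direction of largest difference without overlap and with a mean of at least 5 FPKM, up to 4 of smallest p per list, a fixed set, and a few said to be named after their values were seen, with some further list members. The members, lists and rules were chosen with earlier results of these data known. The relative weight of the libraries on within-group deviations came from a principal component of the values less their group means. Glial markers had 1 member tested of 3 in the table and erythroid markers 0 in the table. Alternatives tried were other pseudocounts, filters, scalings, fits and library subsets.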

Additional observations from a re-analysis of the deposited data

Results flagged for a closer look

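Gm8615 had an axis difference at 4 h that differed from that at 30 min by 1.95 on the log2 scale (limma, adjusted p = 0.000127 with the small RNA rows kept). It had 2.66, 2.71 and 2.2 FPKM in the longitudinal 30 min libraries, against 2.77, 2.36 and 3.36 FPKM in the transverse 30 min libraries, and was near 0 in the transverse 4 h libraries alone.

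Some small RNA entries, left out of the comparison, showed signals that separate whole groups. Snora5c had 23.7, 11 and 13.3 FPKM under longitudinal stretch at 4 h, against 0.757, 1.14 and 0 FPKM under transverse stretch at 4 h (3.38, limma adjusted p = 0.00473), and its control libraries had 36.5, 52.1 and 23.2 FPKM. Mir3100 differed between the axes at 4 h by 1.44 and was not called (limma adjusted p = 0.116). It had 305, 377 and 686 FPKM in longitudinal against 206, 186 and 101 FPKM in transverse 4 h libraries, and 0.397, 0 and 0 FPKM in control. At 30 min the order was the opposite, with 0.723, 0 and 0 FPKM in longitudinal against 88.8, 265 and 276 FPKM in transverse libraries. The axis differences of Mir3100 at the 2 times differed by 8.73 (limma adjusted p = 7.48e-05). Mir5132 differed by -0.13 at 4 h, being below 1 FPKM in all 6 libraries of both axes, and at 63, 54 and 60.2 FPKM in control. At 30 min it had 0.662, 0.339 and 0 FPKM in longitudinal against 53.7, 79.9 and 55.8 FPKM in transverse libraries. Libraries selected for poly(A) RNA do not measure mature small RNAs, and what these entries count was not tested.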

How the results depend on the processing

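The count of genes higher under longitudinal stretch was 1 as reported, 0 among genes averaging at least 5 FPKM (a filter that removes Gm8615), 2 with quantile normalization, 2 with the small RNA rows kept, 1 to 94 with each library left out, 434 without transverse 30 min B and longitudinal 30 min C, and 1 without the 30 min libraries (both settings chosen after seeing the data). The count lower was 0 as reported, 1 with no filter on low values (Eci3, -0.408, adjusted p = 0.0102), 0 to 79 with each library left out 413 without both and 0 without the 30 min libraries. The test of the axis difference at 4 h against 30 min called 1 gene as reported, 2 with no filter, 0 among genes averaging at least 5 FPKM, 3 with small RNA rows and 1 to 2 with each library left out; it could not be made without the 30 min libraries. Longitudinal 4 h against control gave 2510, with 794 to 3257 when each library was left out and 2986 without the 30 min libraries. Transverse 4 h against control gave 2, then 0 among genes averaging at least 5 FPKM, 1 with the libraries compared alone, 7 with small RNA rows and 1 to 4 with each library left out. The difference of Gm8615 kept its direction and its call in all 26 alternatives that tested it (1.77 to 4.56, the highest at a pseudocount of 0.1 FPKM). Myh7 turned from 0.04 to -0.055 with quantile normalization and -0.134 without longitudinal 4 h C, and ranged from -0.134 to 0.192 with each library left out. The medians of 4 lists changed sign under quantile normalization, calcium handling, ribosomal proteins, glucose transport (-0.067) and class IIa HDACs (-0.006). Leaving out 1 library turned the medians of 10 lists: besides those given with their lists, glucose transport (-0.029 without longitudinal 4 h C, -0.001 without transverse 4 h A, -0.005 without transverse 4 h B) and class IIa HDACs (-0.058 without longitudinal 4 h C, -0.008 without transverse 4 h B). Except for the filters and the added rows, whose construction changes which genes are tested, the cause was not tested.

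With the letters A, B and C as a replicate block, 1 gene was higher and 0 lower, 1 was called in the test between times, 1673 in longitudinal 4 h against control and 1 in transverse 4 h against control. The letters were not taken to pair the libraries: deviations of same-letter libraries of the compared groups correlated at -0.0125 (A), -0.449 (B) and -0.29 (C), and 5 of 15 libraries correlated best with their own letter.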

Other observations

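The other lists gave these counts without overlap between the axes at 4 h. TGF-beta family feedback genes had 6 of 16 higher and 1 lower (median 0.205), Clk kinases and splicing factors 9 of 18 higher and 1 lower (median 0.087), NRF2 targets and metallothioneins 1 of 13 in each direction (median 0.3, but -0.065 without longitudinal 4 h C), and Notch pathway genes 1 of 14 higher and 2 lower (median -0.06, but 0.028 without transverse 4 h C and 0.003 without longitudinal 4 h B). NAD synthesis genes had 1 of 9 higher, Itgb1bp3, and 3 lower (median -0.133). Glucose transport and glycolysis genes had 4 of 20 higher and 3 lower; the insulin-responsive transporter gene Slc2a4 had 22.4, 25.5 and 21.5 FPKM under longitudinal stretch, against 31.4, 27.4 and 30.6 FPKM under transverse stretch (-0.35 ± 0.11, adjusted p = 0.112, limma). Class IIa HDACs and transcriptional brakes had 0 of 10 higher and 3 lower. Of the cell type markers, those of myocytes had 1 of 12 higher and 2 lower (median -0.012, but 0.095 without longitudinal 4 h B), endothelial cells 1 of 10 and 0 (median -0.108, but 0.013 without transverse 4 h C), smooth muscle and pericytes 4 of 10 and 1 (median 0.071), macrophages and leukocytes 1 of 13 and 0 (median 0.093) and epicardium 2 of 8 and 0 (median 0.099).

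Eci3, below the filter on low values, had 0.0659, 0.0611 and 0.0247 FPKM under longitudinal stretch at 4 h, against 0.422, 0.378 and 0.382 FPKM under transverse stretch at 4 h; its longitudinal 30 min libraries were similarly low at 0.0523, 0.0536 and 0 FPKM, and its control libraries had 0.441, 0.356 and 0.336 FPKM.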
